A study of Mus musculus with 14 samples.

Results

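The genes described here were 4 cytokines of the interleukin 6 (IL-6) family (Il6, Il11, Lif and Clcf1), 4 receptor chains (Il6ra, Il6st, Osmr and Lifr), the transcription factor gene Stat3 and the feedback inhibitor gene Socs3. They were picked by gene symbol, and all 10 were among the 24411 genes of the deposited count files. RNA was sequenced from whole kidneys of male C57/B6 mice aged 8 weeks, at day 0 (4 libraries), day 1 (5 libraries) and day 3 (5 libraries) of renal ischemia/reperfusion injury (IRI), in which the blood supply of the kidney is stopped and then restored. Day 0 libraries are named as controls. Whether those mice had a sham operation is not given in the sources used here. No allele, transgene or drug was named for any group. Only males were used, since females were described as more resistant to the injury. Nothing in the labels says that the libraries of a day came from separate mice, so the p-values below measure the spread between these samples, which may be technical.

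The cytokines of this family signal through gp130, the product of Il6st. IL-6 and IL-11 first bind a chain of their own, while LIF and the factor encoded by Clcf1 signal through gp130 paired with the LIF receptor, and oncostatin M (Osm) in mice mainly through gp130 paired with the product of Osmr. The paired chains activate Janus kinases, which phosphorylate STAT3, and STAT3 in turn switches on Socs3, whose product binds gp130 and the kinases and shuts the signal down. In the injured kidney the family is known for its part in the acute-phase response and in the exchange of signals between tubular cells and immune cells. RNA levels show neither the amount of cytokine protein nor the phosphorylation of STAT3.

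Between 12485579 and 20476979 reads per library fell on genes. Levels are given in CPM, a gene's read count scaled to a library size that is common to all libraries (TMM scaling). Where levels of genes are ranked, and for the ratios of receptor chains, the CPM was divided by the length of the gene's exons in kilobases. Sums and shares of the cytokine genes and the ratio of Socs3 to Stat3 are in plain CPM. A difference between days was called where the adjusted p of edgeR's quasi-likelihood test, taken over all 14300 genes with enough reads, was below 0.05. All 10 genes of the family passed the filter on low counts. In whole tissue, a gene with more RNA per cell and a larger number of cells that hold it cannot be told apart. The number in a library's name has 1 digit in the 4 day 0 libraries, in day 1 replicates 3, 4 and 5 and in day 3 replicates 4 and 5, and it has 3 digits in the other libraries. This number format may mark a batch, and the members were compared by format within day 1 and within day 3.

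At day 1, 9 of the 10 genes differed from day 0. Il6, Il11, Lif, Clcf1, Il6ra, Osmr, Stat3 and Socs3 rose and Lifr fell, while Il6st did not pass the test. The median log2 difference of the 10 genes was 3.59, also with Il6 at its lower bound, against 0.01 over all genes tested. Of all genes, 42.1% were called in this comparison, 23.3% as higher and 18.7% as lower. The same 9 genes had day 1 values that did not overlap those of day 0, which 42.0% of all genes had. The plot of CPM by day and library shows the 10 genes.

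**Figure D1:**
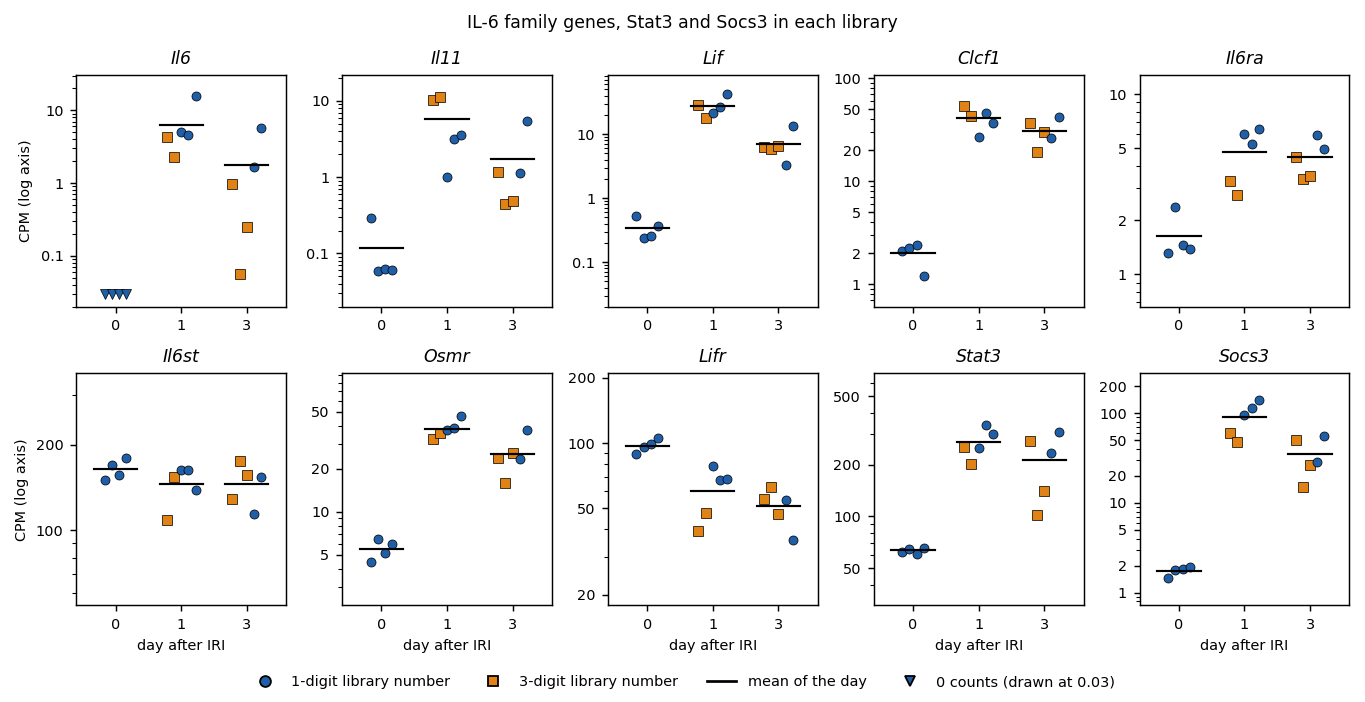
CPM of each of the 10 genes (log axis) in every library at day 0, 1 and 3 after IRI, with 1 point per library and a bar at the mean of the day. Circles are libraries with a 1-digit number, squares those with a 3-digit number, and triangles mark the 4 day 0 libraries with 0 Il6 reads. Il6st values overlap between the days, Lifr lies lower after injury, and the other 8 genes lie above all day 0 libraries.

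The 4 genes with the largest fitted differences between day 1 and day 0 were Il6, Lif, Socs3 and Il11. Their sequences before the RefSeq transcription start are shown since these genes rose together (GRCm38.p6, from 250 to 12 bases before the start, 5′ to 3′ on the strand of the gene). Capitals mark matches to 6 motifs searched on both strands.
Il6 (chr5:30012864-30013102, plus strand): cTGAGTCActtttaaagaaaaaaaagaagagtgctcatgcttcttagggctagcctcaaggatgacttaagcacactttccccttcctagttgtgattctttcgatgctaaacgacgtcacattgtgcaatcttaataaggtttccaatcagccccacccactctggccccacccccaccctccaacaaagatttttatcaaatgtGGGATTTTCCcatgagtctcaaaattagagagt
Il11 (chr7:4778153-4778391, minus strand): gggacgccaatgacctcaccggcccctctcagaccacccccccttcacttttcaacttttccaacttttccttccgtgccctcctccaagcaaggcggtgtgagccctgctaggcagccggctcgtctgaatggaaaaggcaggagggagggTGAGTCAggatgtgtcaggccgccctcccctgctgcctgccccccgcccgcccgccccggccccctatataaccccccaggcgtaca
Lif (chr11:4257318-4257556, plus strand): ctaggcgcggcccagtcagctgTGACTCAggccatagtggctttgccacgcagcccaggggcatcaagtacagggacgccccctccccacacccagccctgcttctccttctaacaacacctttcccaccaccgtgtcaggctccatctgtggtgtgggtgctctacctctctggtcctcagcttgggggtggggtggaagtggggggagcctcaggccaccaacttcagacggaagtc
Socs3 (chr11:117969378-117969616, minus strand): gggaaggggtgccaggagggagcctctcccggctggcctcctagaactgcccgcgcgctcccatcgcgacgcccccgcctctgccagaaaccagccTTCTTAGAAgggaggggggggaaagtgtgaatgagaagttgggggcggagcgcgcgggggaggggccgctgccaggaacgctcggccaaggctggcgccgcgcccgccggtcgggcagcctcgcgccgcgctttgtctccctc
The motifs were TTCNNNGAA, the spacing that STAT proteins bind, its stricter form TTCCNGGAA, every match of which also matches the first, TGANTCA of the AP-1 factors, a motif of 10 bases bound by NF-kB, TGACGTCA of the CREB factors, and the TATA box TATAAA. Among all 32851 RefSeq windows of 300 bases, from 250 before to 50 after a start, these were found in 8.3%, 1.15%, 7.81%, 0.411%, 1.79% and 13.6%. The Socs3 window held TTCNNNGAA, with its first base 154 bases before the start. In the Il6 window TGANTCA began 249 bases and the NF-kB motif 44 bases before the start. TGANTCA began 228 bases before the start in the Lif window and 98 bases before it in the Il11 window shown. A further Il11 window, at a start farther upstream, held none of the 6 motifs. Among the other genes with a window, which were Il6ra, Il6st, Osmr, Lifr and Stat3, only that of Osmr held one, TGANTCA at 4 bases from the start. Clcf1 was not matched. The Socs3 window, the Il11 window shown and the Osmr and Lifr windows lie within longer models of the same genes in GENCODE vM21, and a match of letters is a description of the sequence and not of binding.

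Among the cytokines, Il6 (chr5:30013114-30019981, plus strand, mm10), which encodes the pyrogenic and acute-phase cytokine IL-6, had 0 reads in all 4 day 0 libraries. Pooled over those libraries, 0 counts allow a level of up to 0.0553 CPM (exact Poisson interval, 95%, counting error only). At day 1 its levels were 4.36, 2.27, 5.04, 4.52 and 15.5 CPM in replicates 1 to 5, and at day 3 they were 0.967, 0.0563, 0.248, 1.68 and 5.8 CPM. Every library after injury thus held Il6 reads, from 1 read in day 3 replicate 2 to 193 reads in day 1 replicate 5. Against a floor of 3 counts in each day 0 library, Il6 was at least 35.2-fold higher at day 1 (adjusted p = 0.00192) and at least 9.73-fold higher at day 3 (adjusted p = 0.0101). Replicate 5 carried much of both means. Without it the bounds were 22.5-fold at day 1 and 4.1-fold at day 3, where the mean fell from 1.75 to 0.738 CPM.

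Lif (chr11:4257557-4272514, plus strand), the leukemia inhibitory factor, was read at 0.518, 0.235, 0.253 and 0.363 CPM at day 0. It stood at 28.7, 17.6, 21.2, 26.3 and 42.6 CPM at day 1 and at 6.21, 5.8, 6.44, 3.3 and 13.5 CPM at day 3. The 3 days did not overlap. Lif had the largest fitted log2 difference of the genes with reads at day 0, 6.28 ± 0.48 (SE, 5 against 4 libraries, adjusted p = 2.4e-06), or 77.7-fold. At day 3 it was still 20.1-fold above day 0 (log2 difference 4.33 ± 0.46 SE, adjusted p = 2.96e-05).

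Il11 (chr7:4772373-4782859, minus strand), a cytokine made by stromal and epithelial cells, had only 8 reads at day 0, of which 5 lay in replicate 1 (0.288, 0.0588, 0.0632 and 0.0605 CPM). Its day 1 levels of 10.2, 11.1, 1.02, 3.14 and 3.62 CPM fell apart by number format, with the 2 libraries of 3-digit number highest. Day 3 gave 1.17, 0.451, 0.495, 1.14 and 5.44 CPM, and replicate 5 stood above the others. Over the pooled day 0 level, the mean was 48.6-fold higher at day 1 (24.7 to 112.7 from the counting error of the 8 reads) and 14.5-fold higher at day 3 (7.36 to 33.6). The fitted log2 differences were 5.54 ± 1.04 (SE, adjusted p = 0.0011) and 3.76 ± 1.02 (SE, adjusted p = 0.0126). Among the 1-digit libraries they were 4.38 and 4.7, and with only 3-digit libraries after injury 6.41 and 2.5. Without day 0 replicate 1 they were 6.43 and 4.65, and without day 3 replicate 5 the day 3 difference was 2.71 (adjusted p = 0.0318).

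Clcf1 (chr19:4214238-4223490, plus strand), which encodes a cytokine related to ciliary neurotrophic factor, had the highest mean of the 4 cytokine genes at each day per kilobase. It rose from 2.13, 2.24, 2.4 and 1.21 CPM at day 0 to 54.6, 43.0, 27.3, 46.5 and 36.8 CPM at day 1. At day 3 it remained at 36.7, 19.5, 30.1, 26.3 and 42.3 CPM, which overlapped the day 1 range. The log2 differences from day 0 were 4.38 ± 0.30 (SE, adjusted p = 1.03e-06) at day 1 and 3.95 ± 0.29 (SE, adjusted p = 2.49e-06) at day 3. The annotation of the mouse genome places a further protein-coding gene model on the same strand over Clcf1, so reads shared with it may be counted differently by another annotation.

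Summed, the 4 cytokine genes gave 1.63 to 2.93 CPM at day 0, 54.5 to 98.6 CPM at day 1 and 25.9 to 67.1 CPM at day 3. Clcf1 made up 72.5% to 88.4% of this sum at day 0, 37.4% to 58.1% at day 1 and 63.1% to 81.5% at day 3. The day 1 shares lay below those of all other libraries, while days 0 and 3 overlapped. These shares, and the ratios of genes given below, were formed after the levels had been seen and are descriptions without a test.

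Of 6 other ligands of the family, 4 had enough reads to be tested, and those called in a comparison are described here. Osm, made mainly by leukocytes, rose from 0.0151 ± 0.0302 CPM (SD, n = 4) to 0.733 ± 0.571 CPM (SD, n = 5) at day 1 and 0.821 ± 0.79 CPM at day 3 (adjusted p = 0.00283 and 0.00294), at least 4.07-fold and 4.56-fold higher against a floor of 3 counts in each day 0 library. Ctf1, cardiotrophin 1, fell at day 1 from 6.49 ± 0.844 to 3.2 ± 1.8 CPM (log2 difference -1.01 ± 0.37 SE, adjusted p = 0.0402). Within day 1 it averaged 5.16 ± 0.169 CPM (SD, n = 2) where library numbers had 3 digits and 1.89 ± 0.0453 CPM (SD, n = 3) where they had 1, a log2 difference of 1.45 ± 0.26 (SE, adjusted p = 0.00141) that is larger than the fall. At day 3 the 3-digit libraries again had more, 5.11 against 2.93 CPM (0.8 ± 0.26 SE, adjusted p = 0.0492). Cntf, ciliary neurotrophic factor, was called between formats at day 1, with 0.176 ± 0.0561 CPM in the 3-digit against 0.965 ± 0.488 CPM in the 1-digit libraries (-2.4 ± 0.71 SE, adjusted p = 0.0195).

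The receptor chains moved in different directions. Osmr (chr15:6813577-6874969, minus strand), the oncostatin M receptor chain, rose from 4.43, 6.41, 5.18 and 5.93 CPM at day 0 to 32.4, 35.5, 37.5, 38.8 and 46.7 CPM at day 1. At day 3 it stood at 24.0, 15.8, 25.7, 23.6 and 37.2 CPM. Both later days lay wholly above day 0. The rise was 6.94-fold at day 1 (log2 difference 2.80 ± 0.23 SE, adjusted p = 3.06e-06) and 4.6-fold at day 3 (2.20 ± 0.22 SE, adjusted p = 1.7e-05).

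Lifr (chr15:7090614-7197489, plus strand), the LIF receptor chain, was the member that fell. Its levels were 89.0, 96.2, 98.7 and 105.0 CPM at day 0, then 39.2, 47.7, 78.1, 67.7 and 68.5 CPM at day 1 and 55.4, 62.9, 47.0, 54.6 and 35.7 CPM at day 3. No library after injury reached the lowest day 0 value. The log2 difference was -0.69 ± 0.20 (SE, adjusted p = 0.0124) at day 1, where the mean was 0.619 of that of day 0. With the 1-digit libraries alone it was -0.41 (adjusted p = 0.0291), and with the 3-digit libraries of that day -1.16 (adjusted p = 0.000347). At day 3 it was -0.93 ± 0.20 (SE, adjusted p = 0.00325), a ratio of 0.526.

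Osmr and Lifr, whose products each pair with gp130, both lie on chromosome 15. Per kilobase of exon, Osmr RNA stood at 0.0443 to 0.0593 of Lifr RNA at day 0. This ratio was 0.427 to 0.734 at day 1 and 0.223 to 0.928 at day 3. Lifr thus remained the more abundant RNA of the pair in every library, by a smaller margin after injury, and in day 3 replicate 5 the levels came closest, at 3.07 CPM per kilobase for Osmr and 3.31 for Lifr.

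Il6ra (chr3:89864059-89913196, minus strand) encodes the chain that binds IL-6 itself. It was low throughout, with 1.32, 2.35, 1.45 and 1.39 CPM at day 0, 3.29, 2.77, 6.0, 5.26 and 6.43 CPM at day 1, and 4.48, 3.38, 3.51, 5.92 and 4.99 CPM at day 3. All 10 libraries after injury lay above the highest day 0 value, that of replicate 2. The rise was 2.89-fold at day 1 (log2 difference 1.53 ± 0.32 SE, adjusted p = 0.00207) and 2.72-fold at day 3 (1.44 ± 0.32 SE, adjusted p = 0.00398). With only the 3-digit libraries of day 1 set against day 0, whose libraries are all 1-digit, the difference was 0.89 (adjusted p = 0.039).

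Il6st (chr13:112464070-112510086, plus strand), the shared gp130 chain, was read at 150.1, 169.9, 157.0 and 179.4 CPM at day 0. Day 1 gave 108.4, 153.6, 162.7, 162.9 and 138.2 CPM and day 3 gave 128.8, 175.6, 157.3, 113.9 and 154.4 CPM. The days overlapped. Its log2 difference from day 0 was -0.18 ± 0.15 (SE, adjusted p = 0.357) at day 1 and -0.17 ± 0.15 (SE, adjusted p = 0.403) at day 3. Il6st RNA per kilobase was 56.2 to 100.4 times that of Il6ra at day 0, 16.7 to 43.2 times at day 1 and 15.0 to 40.5 times at day 3.

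**Figure D2:**
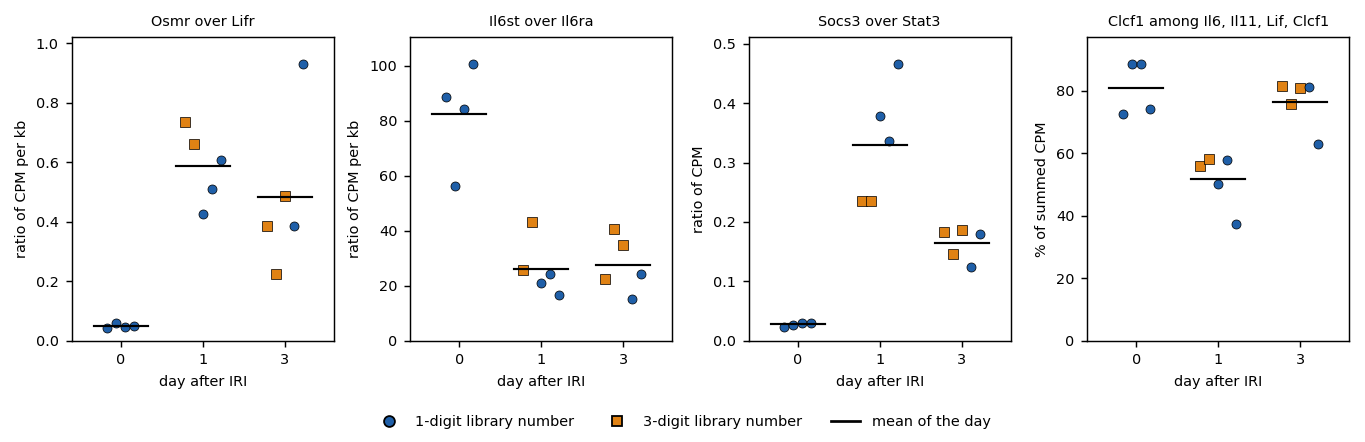
Ratios within each library by day after IRI: Osmr over Lifr and Il6st over Il6ra in CPM per kilobase, Socs3 over Stat3 in CPM, and Clcf1 as a percentage of the summed CPM of Il6, Il11, Lif and Clcf1. Each point is 1 library (circle, 1-digit number, square, 3-digit number) and bars are means, with no test. Osmr over Lifr reaches at most 0.0593 at day 0 and at least 0.223 afterwards, and Clcf1 has its lowest shares at day 1.

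Of the other receptor chains and the sheddases that release the IL-6 receptor, 5 of 6 genes could be tested, and none was called at day 1 (median log2 difference -0.33). At day 3 Cntfr, the chain that binds ciliary neurotrophic factor and the product of Clcf1, was lower, at 0.572 ± 0.186 against 4.98 ± 0.976 CPM at day 0 (log2 difference -3.11 ± 0.56 SE, adjusted p = 0.00119). Il11ra1, the chain that binds IL-11, was lower at day 3 too, at 34.4 ± 7.86 against 53.0 ± 2.67 CPM (-0.62 ± 0.21 SE, adjusted p = 0.0319). Clcf1 and Il11, whose products bind these chains, were higher at day 3 than at day 0. Within day 1, Cntfr averaged 0.757 ± 0.3 CPM (SD, n = 2) where library numbers had 3 digits and 4.34 ± 1.22 CPM (SD, n = 3) where they had 1 (log2 difference -2.52 ± 0.43 SE, adjusted p = 0.00108). Il11ra1 was lower in the 3-digit libraries at day 1 (38.2 against 66.1 CPM, adjusted p = 0.00178) and at day 3 (29.7 against 41.4 CPM, adjusted p = 0.0374).

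Stat3 (chr11:100885098-100939540, minus strand), the transcription factor gene, was tight at day 0, with 62.4, 64.6, 60.8 and 66.0 CPM. Its day 1 levels were 254.2, 201.8, 251.5, 340.6 and 300.4 CPM and its day 3 levels 275.1, 102.2, 140.9, 233.7 and 310.6 CPM. All libraries after injury lay above day 0, with a wide spread at day 3. The rise was 4.25-fold at day 1 (log2 difference 2.09 ± 0.28 SE, adjusted p = 0.000121) and 3.35-fold at day 3 (1.74 ± 0.28 SE, adjusted p = 0.000552). Stat3 overlaps Stat5a on the opposite strand, and the reads of the gene's own strand were used.

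Socs3 (chr11:117966079-117970047, minus strand), the feedback inhibitor, had 1.44, 1.77, 1.83 and 1.94 CPM at day 0. It reached 59.7, 47.4, 95.3, 114.4 and 139.8 CPM at day 1 and stood at 50.3, 14.9, 26.2, 28.9 and 55.9 CPM at day 3. The lowest injured library was 14.9 CPM against 1.94 CPM as the highest at day 0. The log2 difference was 5.71 ± 0.47 (SE, adjusted p = 3.63e-06) at day 1, or 52.2-fold (4.94 with the 3-digit libraries of that day alone), and 4.33 ± 0.45 (SE, adjusted p = 2.06e-05) at day 3, or 20.2-fold. In CPM, Socs3 stood at 0.023 to 0.0301 of Stat3 at day 0, 0.235 to 0.465 at day 1 and 0.124 to 0.186 at day 3, and these ranges did not overlap. The exons of Socs3 are shorter, and per kilobase its day 1 mean was 31.6 against 28.3 for Stat3.

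**Figure D3:**
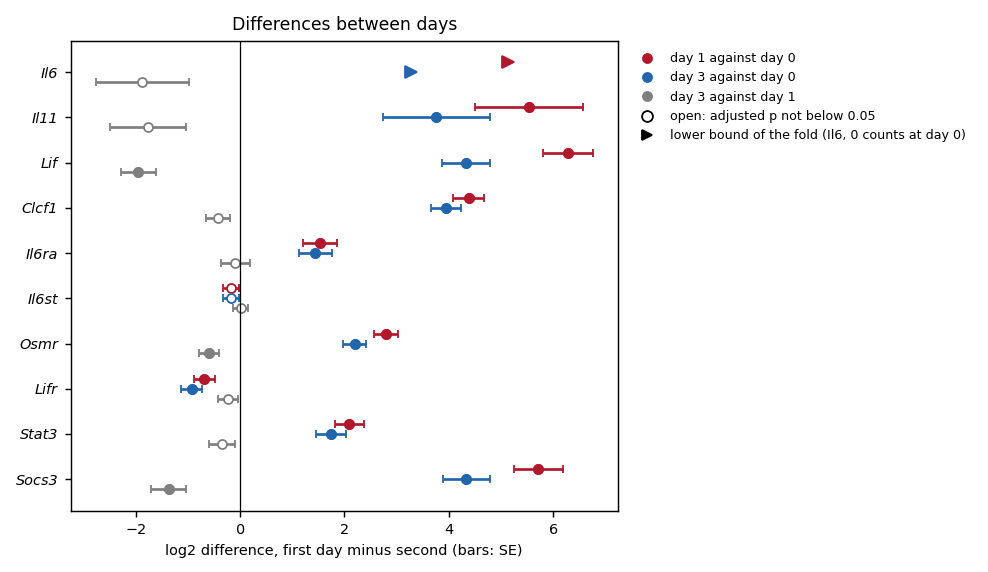
Log2 difference between days for each of the 10 genes, with the SE as bars. Filled points passed the test, open points did not, and triangles give the lower bound of the Il6 fold on the log2 scale, as Il6 had 0 reads at day 0. All points against day 0 lie above 0 except those of Il6st and Lifr, and the points of day 3 against day 1 lie at or below 0, apart from Il6st at 0.01.

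Per kilobase of exon, the order of the levels changed with injury. At day 0 the order was Il6st (14.8 ± 1.18 CPM per kilobase, SD, n = 4), Lifr (9.02 ± 0.612), Stat3 (6.66 ± 0.244), Socs3 (0.603 ± 0.0743), Clcf1 (0.524 ± 0.14), Osmr (0.453 ± 0.0717), Il6ra (0.189 ± 0.0562), Lif (0.0787 ± 0.0299), Il11 (0.0565 ± 0.0545) and Il6, with 0 reads. The ranges of Socs3, Clcf1 and Osmr overlapped, as did those of Lif and Il11. At day 1 Socs3 (31.6 ± 13.2, SD, n = 5) and Stat3 (28.3 ± 5.54) stood highest, with overlapping ranges, followed by Il6st (13.1 ± 2.06), Clcf1 (10.9 ± 2.7), Lif (6.27 ± 2.21), Lifr (5.59 ± 1.5), Osmr (3.15 ± 0.44), Il11 (2.8 ± 2.19), Il6 (2.61 ± 2.16) and Il6ra (0.55 ± 0.189). Il6ra, the chain that binds IL-6, had the lowest mean of the 10 at day 1, and its range overlapped that of Il11 alone. At day 3 its range lay within that of Il6, which was below Il6ra in replicates 1, 2 and 3. At day 3 Stat3 had the highest mean (22.3 ± 9.28), followed by Il6st (13.2 ± 2.21), Socs3 (12.2 ± 5.96) and Clcf1 (8.14 ± 2.33). The ranges of these genes all overlapped, and in day 3 replicate 2 Stat3 (10.7) lay below Il6st (15.8).

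At day 3, 9 of the 10 genes differed from day 0, 8 higher and 1 lower, with a median log2 difference of 2.98 (2.74 with Il6 at its lower bound) against 0.05 over all genes. Of all genes 33.3% were called, 19.5% higher and 13.8% lower, and 33.4% had groups that did not overlap. Comparing the later days with each other, Lif, Osmr and Socs3 were lower at day 3 than at day 1 and no member was higher. Here 15.9% of all genes were called, 8.52% higher and 7.39% lower. The median of the 10 genes was -0.51 against 0.02 over all genes. Lif fell by 1.95 on the log2 scale (SE 0.34, adjusted p = 0.00365), to 0.258 of its day 1 level. Socs3 fell by 1.37 (SE 0.34, adjusted p = 0.0173), and Osmr fell by 0.6 (SE 0.19, adjusted p = 0.0479). Only Lif had days that did not overlap, which 7.61% of all genes had. Lif was called within either number format, with -1.86 (adjusted p = 0.0147) among the 1-digit and -1.91 (adjusted p = 0.00313) among the 3-digit libraries. The Socs3 call was lost among the 3-digit libraries (-0.81, adjusted p = 0.179) and with only the 2 days compared (-1.38, adjusted p = 0.0543). The Osmr call was lost within either format (-0.44 and -0.64), with only the 2 days compared (-0.6, adjusted p = 0.0957), without TMM scaling (-0.43, adjusted p = 0.152), without a filter on low counts (-0.61, adjusted p = 0.0507) and without any 1 of 11 libraries, of every day. For Il6 the difference was -1.88 ± 0.89 (SE, adjusted p = 0.171), with -3.13 (adjusted p = 0.0231) without day 3 replicate 5 and -1.23 (adjusted p = 0.4) without day 1 replicate 5. By format it was -1.17 (adjusted p = 0.231) among the 1-digit and -2.93 (adjusted p = 0.0647) among the 3-digit libraries. For Il11 it was -1.77 ± 0.73 (SE, adjusted p = 0.108), with -2.86 (adjusted p = 0.00947) without day 3 replicate 5. Clcf1, Il6ra, Il6st, Lifr and Stat3 had differences of -0.43, -0.09, 0.01, -0.24 and -0.34, none of which passed the test.

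Day 3 replicate 5 was the highest of its day for 7 of the 10 genes, and day 3 replicate 2 the lowest for 7. In replicate 5 the summed CPM of 6 neutrophil marker genes was 476.7, against 17.5 to 129.1 in the other day 3 libraries, and in replicate 2 it was the lowest. Replicate 5 also had the highest endothelial sum (642.3 against 152.5 to 391.0 CPM) and urothelial sum (882.7 against 53.6 to 259.3 CPM) of its day, and the highest T cell and immediate early sums. The urothelial sum was mostly Krt20, with a mean of 282.0 CPM at day 3. The median log2 difference of the urothelial list from day 0 was -1.22, so this sum does not measure the amount of urothelium. Replicate 2 had the lowest fibroblast, endothelial, urothelial and immediate early sums. The macrophage sum ran the other way, lowest in replicate 5 (103.8 against 125.3 to 448.1 CPM) and second highest in replicate 2 (307.0 CPM). Day 3 macrophage sums split by number format, 103.8 and 125.3 CPM in the 1-digit and 234.7 to 448.1 CPM in the 3-digit libraries. Endothelial sums split too, at 391.0 and 642.3 against 152.5 to 259.1 CPM. The urothelial and T cell sums did not overlap between formats either, while the remaining sums overlapped. The proximal tubule marker sum of replicate 2, 18454.8 CPM, was the highest of day 3, where the others lay between 7597.6 and 9583.2 CPM. Kap alone averaged 5640.9 CPM at day 3, so the sum depends much on 1 gene. Whether these cell types and states have a part in the levels of the family was not tested.

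Of the genes downstream of the receptors, 6 Janus kinase and other STAT genes were tested. Over all genes, 42.1% were called at day 1 and 33.3% at day 3. Jak2 and Jak1 rose at day 1, by 0.59 ± 0.21 (SE, adjusted p = 0.0394) and 0.51 ± 0.14 (SE, adjusted p = 0.0102) on the log2 scale, and Stat5b fell, with -0.69 ± 0.15 (SE, adjusted p = 0.00221). At day 3 Stat5b alone was called, at -0.45 ± 0.15 (SE, adjusted p = 0.0289). By format, Jak2 was lower in the 3-digit libraries at day 1 (56.4 against 85.4 CPM, adjusted p = 0.0105) and day 3 (45.2 against 73.3 CPM, adjusted p = 0.0116), and Stat5b was higher in them at day 3 (38.3 against 26.7 CPM, adjusted p = 0.0164). The medians of the list were -0.37 and -0.05. Stat3, at 2.09, had a larger log2 difference at day 1 than the 3 genes called in this list.

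Beside Socs3, 7 other inhibitors of the pathway were tested. At day 1, 4 rose and 1 fell, with a median log2 difference of 0.5, where 23.3% of all genes were called higher and 18.7% lower. Socs1 rose from 0.299 ± 0.13 to 1.06 ± 0.411 CPM (log2 difference 1.8 ± 0.58 SE, adjusted p = 0.0225). Socs2, an inhibitor best known in growth hormone signalling, rose from 9.99 ± 0.583 to 32.5 ± 9.34 CPM (1.7 ± 0.31 SE, adjusted p = 0.000856) and remained higher at day 3 (1.48 ± 0.3 SE, adjusted p = 0.00261). Ptpn2, a phosphatase of Janus kinases and STATs, rose at day 1 (1.27 ± 0.2 SE, adjusted p = 0.000362) and was lower at day 3 than at day 1 (-0.92 ± 0.19 SE, adjusted p = 0.00722). Ptpn6, a phosphatase of blood cells, fell at day 1 (-0.84 ± 0.2 SE, adjusted p = 0.00443). Within day 1, the 3-digit libraries had less Ptpn2 (34.1 against 61.6 CPM, adjusted p = 0.00111) and more Ptpn6 (20.8 against 13.7 CPM, adjusted p = 0.0193) than the 1-digit ones. At day 3 only Socs2 was called among the 7, with a list median of 0.35.

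Most of 21 genes known as STAT3 targets, a list drawn up from general knowledge and without Socs3, were higher after injury. At day 1, 18 rose and none fell, with a median log2 difference of 2.34, where 23.3% of all genes were called higher and 18.7% lower. At day 3, 16 rose and none fell, with a median of 1.91, where 19.5% of all genes were called higher and 13.8% lower. Lcn2, the kidney injury marker lipocalin 2, rose from 2.24 ± 0.696 to 1688 ± 832.6 CPM at day 1 (log2 difference 9.55 ± 1.09 SE, adjusted p = 3.58e-05). Timp1, an inhibitor of matrix proteases, rose from 0.191 ± 0.232 to 30.3 ± 18.1 CPM, and Serpina3n, an acute-phase protease inhibitor, from 0.918 ± 1.25 to 74.8 ± 32.2 CPM. Between the later days 5 of the 21 fell and none rose, where 7.39% of all genes were called lower and 8.52% higher. Among these, Myc went from 65.8 ± 11.3 to 19.3 ± 7.0 CPM and Bcl3 from 26.2 ± 7.06 to 9.23 ± 3.14 CPM. By format, 4 of the 21 were higher (Fgg most, 3.53) and 4 lower (Junb most, -1.29) in the 3-digit libraries at day 1. At day 3, 3 were lower and none higher. Fgb was 3.09 higher in the 3-digit libraries at day 1 and 5.32 lower at day 3 on the log2 scale. The list summed to 1083.8 to 3513.6 CPM in the 3-digit and 4025.0 to 5184.8 CPM in the 1-digit libraries of day 3. Many genes of the list are also targets of other factors, so it does not measure STAT3 activity.

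Over the 14 libraries, the genes whose log2 CPM relative to their own day 0 mean ran closest to Socs3 were Inhbb, Sox9, Lif, Il1f6 and Cldn4, among 13325 genes with a mean of at least 1 CPM. Their root mean square differences from Socs3 were 0.503, 0.51, 0.587, 0.698 and 0.711 on the log2 scale. Lif, a member of the family, was thus among these 5. Closest to Il6 were Inhbb, Pi15, Sh2d5, Pdk4 and Mt1, at 0.711, 0.775, 0.799, 0.833 and 0.863. Because Il6 had 0 reads at day 0, its profile depends on the prior count of 2 that keeps the log2 finite.

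Within day 1, 3-digit libraries differed from 1-digit libraries in 4 of the 10 genes, against 35.0% of all genes, 18.6% higher and 16.4% lower. Il11 was higher in the 3-digit libraries, at 10.7 ± 0.629 CPM (SD, n = 2) against 2.6 ± 1.38 CPM (SD, n = 3), a log2 difference of 2.04 ± 0.61 (SE, adjusted p = 0.0207). Il6ra (-0.96 ± 0.29 SE, adjusted p = 0.0214), Lifr (-0.72 ± 0.18 SE, adjusted p = 0.00965) and Socs3 (-1.12 ± 0.39 SE, adjusted p = 0.0408) were lower. Leaving out day 1 replicate 1 or 2 leaves a single 3-digit library at day 1, so only the sizes of the differences are given. Without replicate 1 they were 2.09 for Il11, -1.1 for Il6ra, -0.59 for Lifr and -1.31 for Socs3. Without replicate 2 they were 1.98 for Il11, -0.84 for Il6ra and -0.96 for Socs3. The Il11 call was lost without day 1 replicate 3 (1.66), that of Il6ra without day 1 replicate 5 (-0.89), and that of Socs3 without day 1 replicate 4 (-1.14) or 5 (-0.97) or day 0 replicate 1, 2 or 3 (-1.12 each). Without TMM scaling those of Il6ra (-0.75, adjusted p = 0.0536) and Socs3 (-0.92, adjusted p = 0.0779) were lost. A count of 4 in 10 is near the share called among all genes.

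Within day 3, Il6 and Il11 were lower in the 3-digit libraries and no other member was called, against 18.5% of all genes, 10.3% higher and 8.22% lower. A count of 2 in 10 is near the share called among all genes. Il6 stood at 0.424 ± 0.48 CPM (SD, n = 3) against 3.74 ± 2.91 CPM (SD, n = 2), a log2 difference of -3.1 ± 0.9 (SE, adjusted p = 0.0394). Il11 stood at 0.705 ± 0.404 against 3.29 ± 3.04 CPM (-2.2 ± 0.67 SE, adjusted p = 0.0394). Both calls were lost without day 3 replicate 2 or 3. Leaving out replicate 4 or 5 leaves a single 1-digit library at day 3, so only the sizes of the differences are given for these fits. Without replicate 5 the differences were -1.97 for Il6 and -0.7 for Il11, and without replicate 4 they were -3.73 and -2.93. Without replicate 2 or 3 they were -2.61 and -2.81 for Il6 and -1.97 and -1.98 for Il11. The Il11 call was also lost, at -2.2 or -2.19, without day 0 replicate 2 or 3 or day 1 replicate 1 or 2. Without day 3 replicate 1 the Il6 difference was -4.51 (adjusted p = 0.0105). Without day 3 replicate 1, Stat3 (-1.16, adjusted p = 0.00215, against -0.66 with all libraries) and Socs3 (-1.04, adjusted p = 0.0231, against -0.47) gained a call. Without day 3 replicate 4 the differences were -1.14 for Lif, against -0.44 with all libraries, and 0.63 for Lifr, against 0.29.

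The format difference itself was not the same on both days for Il11 and Lifr. A count of 2 in 10 is near the 17.6% called among all genes. For Il11 the difference at day 1 minus that at day 3 was 4.24 ± 0.909 (SE, adjusted p = 0.00749). For Lifr it was -1.0 ± 0.257 (SE, adjusted p = 0.0182). Without day 3 replicate 5, which leaves a single 1-digit library at day 3, these values were 2.74 for Il11 and -0.71 for Lifr. Without day 1 replicate 1, which leaves a single 3-digit library at day 1, that of Lifr was -0.88. The course of Il11 between day 1 and day 3 differed by format, with a log2 difference of 0.32 (adjusted p = 0.732) among the 1-digit libraries and -3.9 (adjusted p = 0.00226) among the 3-digit ones. Lifr gave -0.67 (adjusted p = 0.0139) among the 1-digit and 0.34 (adjusted p = 0.151) among the 3-digit libraries. Against day 0, the direction and the call of each of the 9 genes held with either format alone. All 4 day 0 libraries have 1-digit numbers, so day and format cannot be told apart for the 3-digit libraries in that comparison.

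**Figure D4:**
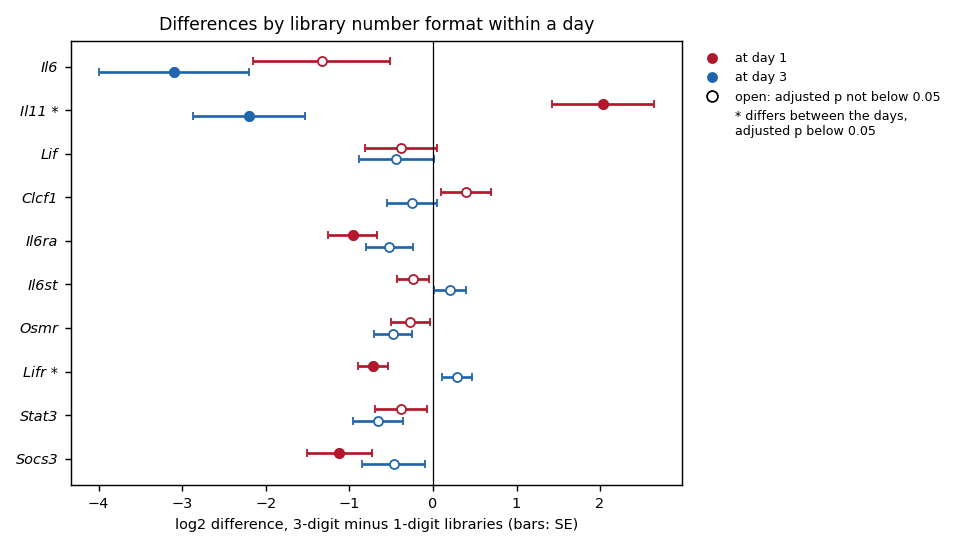
Log2 difference between libraries with a 3-digit and a 1-digit number within day 1 (2 against 3 libraries) and within day 3 (3 against 2 libraries), with the SE as bars. Filled points passed the test, and a star marks genes whose format difference differed between the days. Il11 lies at 2.04 at day 1 and at -2.2 at day 3.

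Markers of other cells and states moved with the days and with the format. Against day 0, 23.3% of all genes were called higher and 18.7% lower at day 1. At day 3 these shares were 19.5% and 13.8%. The counts of called markers here and in the next paragraph are to be read beside these shares. Immediate early genes, which respond within a short time to stress and growth signals, rose in 7 of 7 cases at day 1 (median log2 difference 4.97) and in 5 of 7 at day 3 (2.23). Their summed level was 18.1 to 54.2 CPM at day 0, 51.0 to 214.8 CPM at day 3 and 139.1 to 1816.1 CPM at day 1, where the 3 libraries of 1-digit number lay between 909.2 and 1816.1 CPM and the others at 139.1 and 233.8 CPM. Within day 1, Il6, Il6ra, Osmr, Lifr and Socs3 lay wholly higher in the same 3 libraries than in the other 2, Il11 lay wholly lower, and Lif, Clcf1, Il6st and Stat3 overlapped. That is 6 of 10 genes, and 60.7% of all genes had formats that did not overlap at day 1. The marker sums of fibroblasts (144.3 to 192.7 against 332.0 and 440.9 CPM) and macrophages (84.4 to 91.3 against 126.1 and 148.5 CPM) were lower in those 3 libraries, and that of proximal tubule was higher (35737.6 to 46014.6 against 18057.7 and 28912.7 CPM). Within day 3, 5 of 8 macrophage markers were called higher in the 3-digit libraries and 1 lower. Of 8 proximal tubule markers 5 were higher there, while 4 had been lower at day 1. At day 3, 4 of 6 endothelial and 2 of 6 fibroblast markers were lower. So was 1 each of the neutrophil, urothelial and immediate early lists. Of all genes 10.3% were called higher and 8.22% lower at day 3. All 6 neutrophil markers in the files rose at both days, from a summed 1.26 to 1.84 CPM at day 0 to 48.2 to 212.2 CPM at day 1 and 17.5 to 476.7 CPM at day 3. Of 8 macrophage markers, 1 rose and 1 fell at day 1 and 3 rose and 1 fell at day 3, with sums of 132.3 to 221.4, 84.4 to 148.5 and 103.8 to 448.1 CPM. Of 6 T cell markers 2 could be tested, of which Lck rose and Cd8a fell at both days, and the sums lay between 1.99 and 4.7 CPM throughout.

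Fibroblast and pericyte markers rose in 2 of 6 cases at day 1 and 5 of 6 at day 3, from 123.8 to 133.9 CPM at day 0 to 144.3 to 440.9 and 521.9 to 1152.1 CPM. Endothelial markers had 1 higher and 1 lower of 6 at day 1 and none called at day 3, with sums of 238.8 to 308.8, 282.5 to 446.3 and 152.5 to 642.3 CPM. The proximal tubule markers, which define the most abundant cells of the kidney cortex, were present in every library, at 41362 to 45834 CPM at day 0. Much of their sum was Kap, which averaged 29706.5 CPM at day 0, 25992.8 CPM at day 1 and 5640.9 CPM at day 3. Of 8, 3 fell at day 1 and 4 at day 3, where the sums were 18058 to 46015 and 7598 to 18455 CPM. Urothelial markers, of cells that line the renal pelvis, had 1 of 6 higher at both days and 1 lower at day 3, and their sums rose from 2.3 to 48.0 CPM to 364.4 to 1209 and 53.6 to 882.7 CPM, mostly through Krt20. None of these marker genes was at 0 in all libraries of a day. The part of these cell types and states in the levels of the IL-6 family was not tested.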

How the data were processed

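Bulk RNA sequencing counts the RNA of all cells of a tissue together. TRIzol was used for total RNA and an Illumina TruSeq kit for the libraries. Reads were aligned with STAR by the authors, who deposited for each library and gene symbol the count of uniquely mapped reads without normalization. The submitters' processing notes also name Trimmomatic and mm10, and tool versions are not given in the sources used here. The opposite-strand column, with 98.5% to 98.7% of the reads assigned to a strand, was used. Reads on no single gene (29.0% to 38.3%) were left out. Pairs of replicates differed beyond counting noise (chi-square per degree of freedom 5.69 to 228) and were each counted, which does not show that they are separate animals.

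Days came from sample titles. Counts were analysed with edgeR 4.0.16 in R 4.3.3 (filterByExpr by day, TMM scaling, quasi-likelihood test, 1 term per day over 14 libraries, Benjamini-Hochberg adjustment over 14300 genes). Formats were compared in a fit with 5 terms, 1 for each combination of day and format. The prior count of log2 CPM was 2. A gene with at most 3 counts in each day 0 library is given by a lower bound of its fold. Tested on simulated data for day 1 against day 0, the fit recovered 173 of 200 changed genes (log2 change 2, 14139 genes) with 8 false calls, and made 1 call among 14161 unchanged genes. The simulated counts had the same spread on all days and no difference by format. In the data, the chi-square of replicate pairs was 5.69 to 24.8 at day 0 and 33.5 to 228 at day 1. The simulation thus does not test the fit under such unequal spread or under format differences. Gene positions and exon lengths came from GENCODE vM21, promoter sequences from RefSeq (GRCm38.p6, 9 of the 10 genes matched).

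The members, the 13 other gene lists (100 entries, from general knowledge) and the tests were chosen with earlier results of these data known. From the list of other ligands 1 gene is not reported here. All members are named, and of each list up to 3 called genes that rose most and 3 that fell most in a comparison could be named. For Il6 and Socs3 the 5 genes with the most similar profile were named. Alternatives concerned the strand (unstranded counts), the scaling (RLE, or totals alone), the filter (none, or 10 counts in every library), the tool (DESeq2 1.42.0), the libraries in the fit (2 days, 1 format, each library left out) and a further term for the replicate number or the format. Intervals and floors cover counting error only.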

Additional observations from a re-analysis of the deposited data

Results flagged for a closer look

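Of 29 groups of values (10 genes on 3 days, without Il6 at day 0), 5 had a library far from the others of its day on the CPM scale, where chance gives about 1 in 20, or 1.45. Il6 stood apart in replicate 5 at day 1 (15.5 CPM, others 2.27 to 5.04) and in replicate 5 at day 3 (5.8 CPM, others 0.0563 to 1.68). Il11 stood apart in day 3 replicate 5 (5.44 CPM, others 0.451 to 1.17) and in day 0 replicate 1 (0.288 CPM, others 0.0588 to 0.0632), where it rests on 5 reads against 1 in each other library. Il6ra stood apart in day 0 replicate 2 (2.35 CPM, others 1.32 to 1.45). On log2 CPM, 2 libraries stood apart.

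The difference between number formats differed between day 1 and day 3 in a test of the difference itself for Il11 (4.24 on the log2 scale, adjusted p = 0.00749) and for Lifr (-1.0, adjusted p = 0.0182). A count of 2 in 10 is near the 17.6% called among all genes. Without day 3 replicate 5 the values were 2.74 and -0.71, and without day 1 replicate 1 that of Lifr was -0.88. Each of these fits leaves a single library in 1 format of a day, so only sizes are given.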

How the results depend on the processing

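The 9 calls of members at day 1 and the 9 at day 3 against day 0 kept their direction and side of the threshold wherever the gene was tested. Values were lacking for Il6, Il11 and Lif with at least 10 counts in every library, and for Il6 and Il11 at day 3 with only the 2 days compared. Of 1330 values of single members under an alternative, 1248 kept direction and side of the threshold, 47 lost the call, 9 gained it and 26 changed sign. These counts include fits between formats that left a single library in a group. Reads on Il6 and Il11 at day 0, and 2 or 3 libraries per format, limit what could be detected. The cause of the changes below was not tested.

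Between day 3 and day 1, 1 member, Lif, was called with only the 2 days compared (Osmr and Socs3 were lost), and 2 to 5 without 1 library (5 without day 3 replicate 5). Over all genes 831 were called with only the 2 days compared, 5194 with only 1-digit libraries and 1269 to 3350 without 1 library, against 2276. Only 1-digit libraries gave 8119 genes for day 3 against day 0, against 4757. Signs of differences between day 3 and day 1 that were not called changed for Il11 (0.32 with only 1-digit libraries), Lifr (0.34 with only 3-digit libraries), Il6ra (0.09 without TMM, 0.11 with format as a term, 0.32 with only 3-digit libraries, -0.23 to 0.04 without 1 library) and Il6st (-0.02 with RLE and with DESeq2, -0.01 without a filter, -0.22 with only 1-digit libraries, -0.09 to 0.09 without 1 library).

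Between formats at day 1, 2 members were called without TMM, and 0 to 4 without 1 library, with 1997 to 5602 genes in all against 5001. At day 3, 0 were called with at least 10 counts in every library and 0 to 4 without 1 library, with 91 (without day 3 replicate 5) to 4771 genes in all against 2645. There, leaving out 1 library gave -1.14 to 0.88 for Lif, -0.55 to 0.11 for Clcf1, -0.01 to 0.41 for Il6st, -0.01 to 0.63 for Lifr and -1.04 to 0.06 for Socs3. For the change of the format difference between days, 1 member was called with at least 10 counts in every library and 0 to 2 without 1 library, with 1260 to 3148 genes in all against 2510. Leaving out 1 library gave -1.26 to 0.76 for Lif and -0.15 to 0.5 for Osmr.

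Without TMM the median over all genes shifted to 0.19 (day 3 against day 0), 0.17 (day 3 against day 1), 0.24 (format at day 1) and 0.19 (change of the format difference). Calls were then 3625 higher and 1286 lower (2783 and 1974 with TMM), 1721 and 487 (1219 and 1057), 3909 and 1439 (2656 and 2345), and 1819 and 979 (1208 and 1302).

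Among the 13 pairs of libraries with the same replicate number, deviations correlated at -0.175 to 0.261 and 4 were over 0.1. Pairs of unlike number reached -0.499 and 0.534. Such correlations do not settle whether libraries of the same number share an origin, since deviations within a day also hold the format difference. In 6 of 26 cases a library correlated best, among those of another day, with the one of its own number. The count expected by chance was not computed. With a replicate block, 9, 9 and 4 members and 5162, 4103 and 2044 genes were called at day 1 and day 3 against day 0 and at day 3 against day 1. The added member was Il6 (-2.51, adjusted p = 0.0278). The block was not fitted to the comparisons of formats.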
